A study of Nicotiana tabacum with 6 samples.

Results

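The tobacco array carried probes for 278 old-style nucleotide records, whose identifier is 1 capital letter followed by 5 digits, among 40425 identifiers in all. They had 384 of the 43759 probes. These are called early records here. They were chosen by the form of the identifier alone. Testing was limited to probes detected well over background by every array of the aluminium or of the control group, and 335 probes of 237 records met this. Identifiers of this form were issued in the early years of the public sequence databases, when most entries were single cloned genes. By the databases' conventions the letter D was used in Japan, X, Y and Z in Europe, and L, M and U in the United States, while S marks sequences taken from journals, T single-pass expressed sequence tags and A patent sequences. The array files give no type of molecule, so the name "individually cloned mRNA" could not be checked, and by that convention the 6 T and 2 A probes need not fit it. None of the 278 records matched any of the 79372 genes of the RefSeq gene table used for names, and the files pair them with no gene name, so each is given by its identifier and no role is assigned to it. The record and probe sequences were not analysed here.

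The treated cells were suspension-cultured tobacco cells (Nicotiana tabacum) of the wild-type line SL, kept for 18 h with 100 µM aluminium chloride, and the control cells were kept for 18 h in the same medium with none (0 µM). Both groups were washed log-phase cells at 10 mg fresh weight per mL in 3 mM calcium chloride, 3% sucrose and 20 mM MES buffer at pH 5.0, shaken at 100 rpm and 25 °C. Each group had 3 samples, and Cy3-labelled RNA of each sample was hybridised to a separate single-colour array. The labels list no other component of this medium, which both groups shared.

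Aluminium dissolves as a toxic ion in acid media. It binds to pectin in the plant cell wall and to the plasma membrane, and it stops the growth of roots and of cultured cells. In tobacco cells it is known for raising reactive oxygen species and for slowing sugar uptake. Tobacco is an allotetraploid, so a probe can also take up signal from near-identical transcripts of both parental genomes.

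Separate cultures are not named in the labels. The spread that the p-values rest on is therefore that of these samples and may be technical in part. Each replicate number was 1 slide, with the aluminium sample always at position 2 and the control sample at position 1, so position and treatment cannot be told apart. The arrays of replicate 3 were scanned on another day and were dimmer, with a 75th-percentile signal of 1180 with aluminium and 1405 in control, against 2789 to 3224 on the other 4 arrays. Of the 384 early-record probes, 337 to 355 were well above background on the aluminium arrays and 324 to 357 on the control arrays. No early-record spot was saturated or an outlier on any array. All levels below are log2 signals relative to the array's 75th percentile, and differences are aluminium minus control on that scale.

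Aluminium treatment was accompanied by lower signal from more of the early records than by higher signal. Of the 335 probes tested, 106 (31.6%) were lower and 56 (16.7%) were higher at an adjusted p under 0.05, from 74 and 45 records. Over all 28861 tested probes of the array, 20.2% were lower and 22.4% were higher. Both directions together made 48.4% of the early-record probes, close to the 42.5% over the array. The median difference was -0.081 for early records and 0.069 for all tested probes, so the early records lay to the lower side of the array as a whole. The test was limma's, and its p-values were adjusted by the Benjamini-Hochberg method across the whole array. With a block for the replicate number (1 slide each) 236 early-record probes were called, against 65% of all tested probes. Of these, 144 were lower and 92 higher, where the array had 30.2% lower and 34.9% higher. With the arrays scaled by their spike-in controls and no block, 46 probes were called, 32 lower and 14 higher, where the array had 4.31% lower and 3.44% higher. With spike-in scaling and the block 105 were lower and 36 higher, where the array had 19.4% lower and 13.5% higher, so under this scaling the array too had more lower than higher calls.

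Changes of at least 2-fold showed the same balance. They were called for 74 probes (22.1%), against 16.4% of all tested probes. Of the 74, 51 were lower with aluminium (15.2%) and 23 higher (6.87%), from 32 and 20 records, where the array as a whole had 7.65% lower and 8.71% higher. All 74 of these probes changed in the same direction in each of the 3 replicate pairs, and in all 74 the 3 aluminium values lay outside the range of the 3 control values. The 74 were picked by size and adjusted p on the same arrays, so this largely follows from the choice. Called or not, 85.1% of tested early-record probes changed in the same direction in all 3 pairs, against 81.2% of all tested probes. Over every tested early-record probe, called or not, the groups did not overlap in 125 probes with aluminium below control and 74 with aluminium above it, against 25.5% and 29.1% of all tested probes. Of the 74, 4 were tested through 1 group alone, and the 70 well above background on all 6 arrays were 50 lower and 20 higher. At 4-fold or more, 19 of the 335 early-record probes fell and 12 rose. Of all 28861 tested probes 606 fell and 723 rose at least 4-fold. In both directions the share was thus larger among the early records than over the array. The remaining 88 called probes changed by less than 2-fold, 55 lower and 33 higher. Calls of any size made 48.4% of early-record probes and 42.5% of all tested probes, and those of at least 2-fold 22.1% and 16.4%. Calls under 2-fold were thus about as common in both.

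Several probes can stand for 1 record, so the balance was also counted with the brightest tested probe of each of the 237 records. By this count 71 records (30%) were lower and 42 (17.7%) higher. The same count over all 26191 tested identifiers of the array gave 19.6% lower and 22.5% higher. At 2-fold or more, 31 records (13.1%) were lower and 20 (8.44%) higher, against 7.33% and 8.82% of all identifiers. The share that rose at least 2-fold was thus close to that of the array, while the share that fell was larger. No test of this difference between sets of probes was made.

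Identifiers of 2 newer forms, with 2 letters, did not show the same balance. Of 289 tested probes with identifiers of the AB series, 88 (30.4%) were lower and 77 (26.6%) higher with aluminium. Of 421 tested probes of the AF, AY and DQ series, 130 (30.9%) were lower and 122 (29%) higher. The shares of lower probes lay within 2 percentage points in the 3 sets, and the early records had the smallest share of higher ones. At 2-fold or more 6.87% of the early-record probes rose, against 14.2% of the AB probes and 12.8% of the AF, AY and DQ probes. At this size 15.2% of the early-record probes fell, against 13.5% of the AB probes and 16.2% of the AF, AY and DQ probes. The larger share of falls than over the array was thus not particular to the early records. These shares are descriptions, and their differences were not tested.

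Brightness moved with the counts. Of the early-record probes 39.4% fell in the brightest quartile of all tested probes, where the array had more higher than lower calls, at 28.1% and 17.6%. In that quartile 24.2% of 132 early-record probes were lower and 19.7% higher. The widest gap was in the quartile next above the dimmest, where 32 of 56 early-record probes (57.1%) were lower and 9 higher. The array had 24.3% lower and 20.6% higher there. In this quartile 25 early-record probes (44.6%) fell at least 2-fold, where the array had 10.7%. In the third quartile 25% of 96 early-record probes were lower, close to the 23.4% of the array. In the dimmest quartile 35.3% of 51 early-record probes were lower and 11.8% higher, against 15.3% and 18% over the array. The quartiles use the mean of all 6 arrays, so a large fall itself lowers the level by which a probe is placed. These are counts of probes and were not recounted by record, so a record with several probes can weigh more than once.

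**Figure D1:**
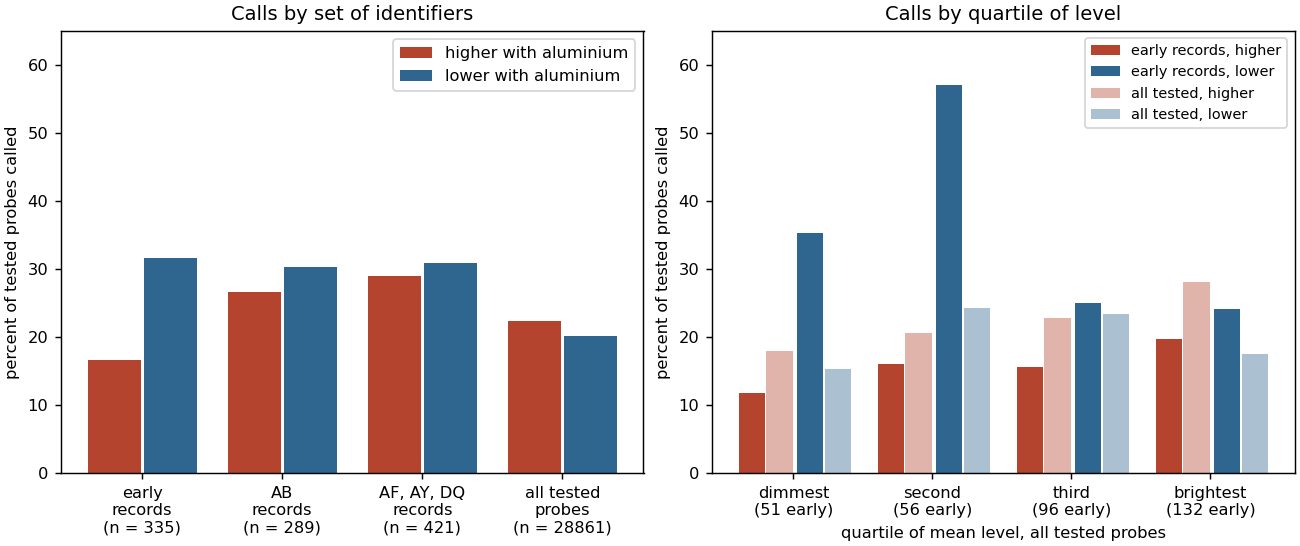
Percent of tested probes called higher or lower with aluminium, for early records and 3 other sets of identifiers (left) and by quartile of mean level for early records and all tested probes (right). Among the early records 31.6% were lower and 16.7% higher, and the lower share reached 57.1% in the second quartile.

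Differences among the early records ran from -3.96 to 4.49. Most of the probes that were not called lay near 0, as the plot of difference against level shows. Of the 173 probes not called, 140 (80.9%) had a 95% interval of the difference that lay within 2-fold in either direction. Over all tested probes that were not called, this share was 76.4%. The median standard error of the difference was 0.14 for early records and 0.15 for all tested probes.

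**Figure D2:**
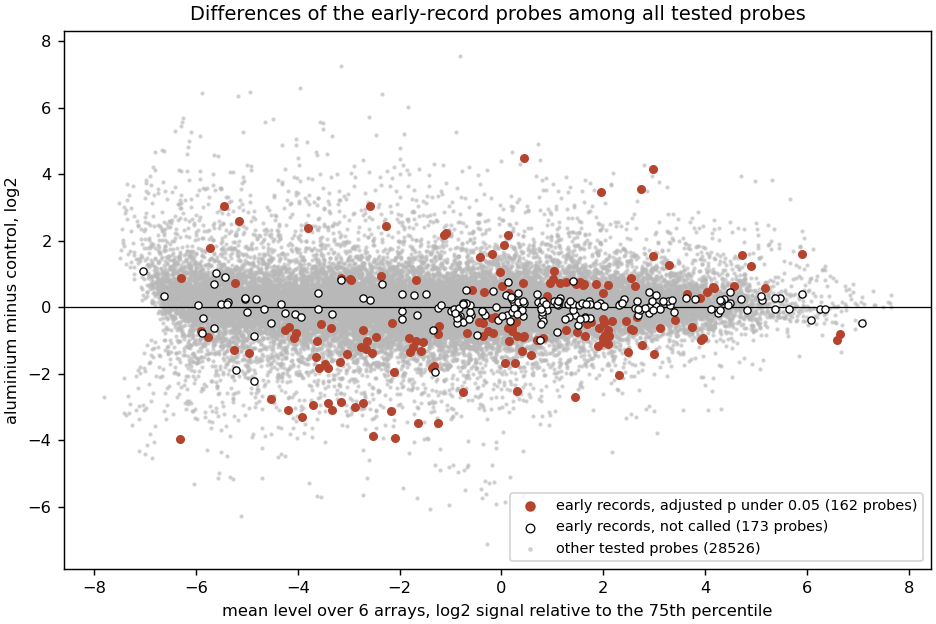
Aluminium minus control difference (log2) against mean level over the 6 arrays, with 162 called and 173 uncalled early-record probes over 28526 other tested probes. Called early-record probes lie between -3.96 and 4.49, below 0 for 106 of them and above 0 for 56. The lowest is D38126, which was not well above background with aluminium.

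The 12 early records given next are those that rose most among probes well above background on all 6 arrays. X95343 had levels of 2.42, 2.72 and 2.94 with aluminium and -1.85, -1.72 and -1.84 in control. This is a rise of 4.49 ± 0.15 (SE), 22.5-fold (limma adjusted p = 3.11e-05). This was the largest rise among the early records, with more than 4 log2 units between the lowest aluminium and the highest control array. D29680 had 5.25, 4.84 and 5.06 with aluminium and 0.73, 0.92 and 1.01 in control, a rise of 4.17 ± 0.14 (SE) or 18-fold. U32644 had 4.75, 4.29 and 4.53 with aluminium and 0.88, 0.99 and 0.98 in control, a rise of 3.57 ± 0.14 (SE) or 11.9-fold. Both were bright on all 6 arrays, and in both the control arrays lay within 0.3 of each other.

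The fourth record had a wider spread in control. X65700 had 3.92, 3.61 and 3.54 with aluminium and 0.88, -0.40 and 0.18 in control, a rise of 3.47 ± 0.32 (SE) or 11.1-fold. X67076 had -1.01, -1.31 and -0.86 with aluminium and -3.60, -4.53 and -4.17 in control, a rise of 3.04 ± 0.26 (SE) or 8.25-fold. In both records control replicate 1 was the highest of the controls, and every aluminium array lay above it. A second probe of X65700 was not well above background on any of the 6 arrays, so the rise of this record rests on 1 probe. D38123 had -1.13, -1.23 and -0.76 with aluminium and -3.21, -3.54 and -3.70 in control, a 5.44-fold rise (2.44 ± 0.18, SE). M29274 had 1.16, 1.04 and 1.47 with aluminium and -1.14, -1.06 and -0.69 in control, a 4.56-fold rise (2.19 ± 0.17, SE). X84040 had 1.04, 0.93 and 0.97 with aluminium and -0.59, -1.07 and -1.02 in control, a 3.65-fold rise (1.87 ± 0.15, SE). In these 3 records the groups stood more than 1 log2 unit apart on every slide.

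A further 3 of the records that rose had a second tested probe. U57350 had levels of 0.06, 0.06 and -0.01 with aluminium and -2.25, -2.14 and -2.24 in control, a 4.75-fold rise (2.25 ± 0.089, SE). Its second probe had 0.03, -0.19 and 0.06 with aluminium and -2.14, -2.30 and -2.21 in control, a 4.55-fold rise. The probes of this record thus gave nearly the same size. X58547 had -2.75, -2.51 and -2.57 with aluminium and -4.95, -4.88 and -5.15 in control, a 5.21-fold rise. Its second probe had -4.06, -3.54 and -3.96 with aluminium and -6.48, -6.31 and -6.57 in control, where 2 of 3 arrays were well above background, so it was tested through the aluminium group alone. X51426 had 0.52, 0.61 and 0.73 with aluminium and -1.0, -1.11 and -0.86 in control, a 3.06-fold rise, and its second probe rose 2.84-fold. D10524, the last of the 12, had 6.83, 6.67 and 6.59 with aluminium and 4.89, 5.12 and 5.29 in control, a 3.02-fold rise. Adjusted p of the 12 ranged from 3.11e-05 to 0.000469 (limma). With normexp background correction the rise of X58547 was 1.66 in place of 2.38, and with spike-in scaling without a block X51426 and D10524 were no longer called (adjusted p = 0.0847 and 0.0923).

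**Figure D3:**
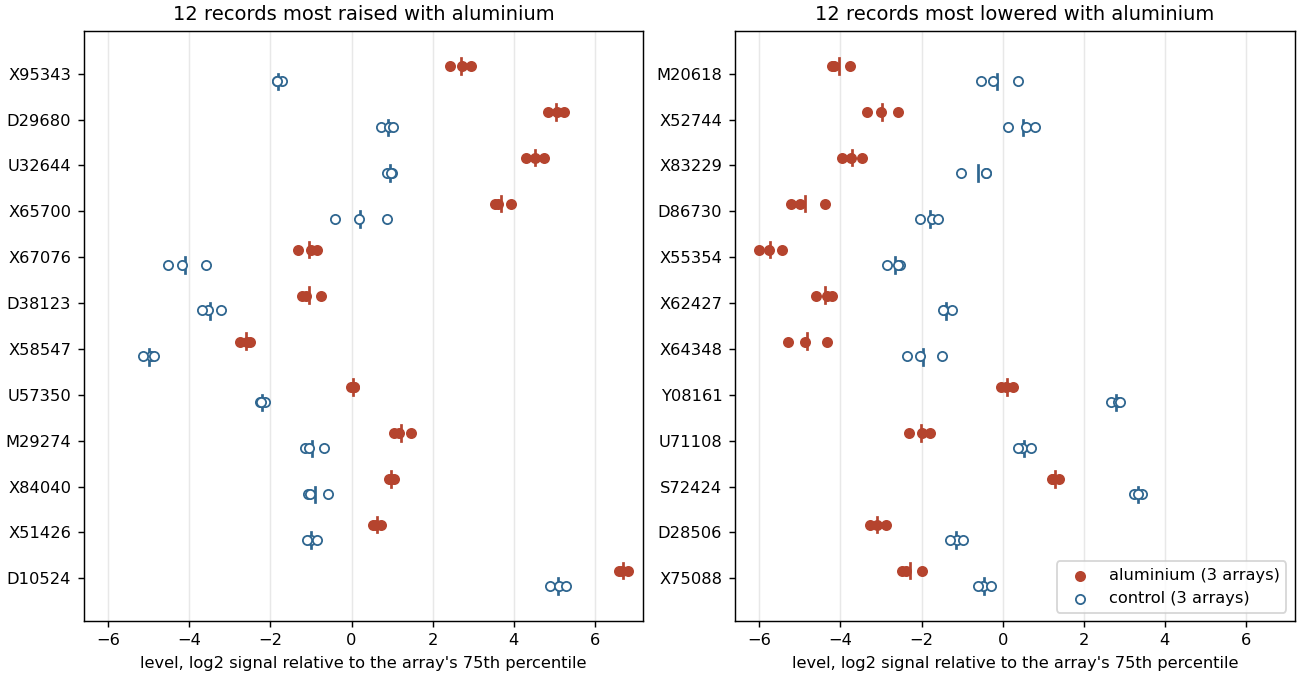
Levels of the 12 early records most raised (left) and the 12 most lowered (right) with aluminium, 1 probe per record, as log2 signal relative to the array's 75th percentile. Each point is 1 array and the short line is the group mean, and in all 24 records the 3 aluminium and 3 control arrays do not overlap.

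Of the 12 records that fell most, 8 had further tested probes, 11 in all, of which 10 were called lower too. M20618 had -3.76, -4.17 and -4.21 with aluminium and 0.37, -0.53 and -0.24 in control. It fell by 3.92 on the log2 scale (SE 0.26), or 15.1-fold (limma adjusted p = 0.000134), and by 3.29 with normexp background correction. Its second probe had -4.46, -3.95 and -4.97 with aluminium and -0.14, -0.86 and -0.78 in control, a 14.6-fold fall. The fall was of like size at both probes.

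X52744 had 4 tested probes, and all of them fell. The probe with the largest fall had -3.0, -2.59 and -3.34 with aluminium and 0.58, 0.79 and 0.14 in control, a fall of 11.2-fold (-3.48 ± 0.25, SE). The others fell 11.1-fold, 9.93-fold and 5.73-fold. The last of these was the brightest, at 1.77, 1.62 and 1.29 in control, and its aluminium arrays read -0.95, -0.79 and -1.13. Replicate 3 was the lowest array of both groups in all 4 probes. X62427 had 3 probes, and the one with the largest fall had -4.33, -4.22 and -4.60 with aluminium and -1.45, -1.26 and -1.46 in control, a 7.96-fold fall. Its other probes fell 7.63-fold and 7.34-fold, so the differences of the 3 probes lay between -2.99 and -2.88.

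D86730 had -4.99, -4.38 and -5.23 with aluminium and -1.73, -1.59 and -2.04 in control, an 8.44-fold fall, and its second probe fell 7.24-fold. X55354 had -5.43, -5.77 and -6.01 with aluminium and -2.54, -2.59 and -2.84 in control, also an 8.44-fold fall, and its second probe fell 6.69-fold. X64348, with 1 probe, had -4.87, -4.34 and -5.30 with aluminium and -2.03, -1.50 and -2.37 in control, a 7.29-fold fall. These 3 records were dim with aluminium, where the background matters most. With normexp background correction their differences were -2.22 for D86730, -1.97 for X55354 and -2.12 for X64348, against -3.08, -3.08 and -2.87 without it.

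The other 6 records of the 12 that fell included the brighter ones. Y08161 had -0.04, 0.08 and 0.26 with aluminium and 2.68, 2.84 and 2.89 in control, a 6.51-fold fall (-2.70 ± 0.12, SE). U71108 had -2.30, -1.79 and -1.98 with aluminium and 0.47, 0.38 and 0.70 in control, a 5.81-fold fall (-2.54 ± 0.17, SE). S72424 had 1.25, 1.40 and 1.22 with aluminium and 3.44, 3.23 and 3.33 in control, a 4.12-fold fall (-2.04 ± 0.11, SE). In none of these 3 did the arrays of a group differ by more than 0.6. D28506 fell 3.87-fold, with 3.51-fold at its second probe, and X75088 fell 3.53-fold, with 2.25-fold at its second probe. X83229, which fell 8.62-fold at 1 probe, is described with its second probe below. Adjusted p of the 12 ranged from 4.99e-05 to 0.000855 (limma), and all 12 were called under every alternative in which their probe was tested.

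D38126 was the only tested early record that was detected on every array of one group and on none of the other. Its levels were -8.00, -8.46 and -8.44 with aluminium, all not well above background, and -4.44, -4.37 and -4.23 in control. As these aluminium levels could not be told from background, no fold is given for it. The adjusted p of 4.24e-05 (limma) belongs to the fitted difference of -3.96, which is taken against signal not well above background, and the probe was tested through the control group alone. With normexp background correction the fitted difference was -1.25, so its size depended on the background. U07627 was singled out after its values were seen. It had -4.31, -4.11 and -3.33 with aluminium, and -5.96, -7.98 and -6.97 in control, where 1 of 3 arrays was well above background. Its probe was tested through the aluminium group alone, so no fold is given, and its second probe was too dim to be tested.

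The early-record probes with the highest signals also moved, by less. Signals depend on the probe and do not rank transcripts by abundance. D86629 had 6.03, 6.16 and 6.11 with aluminium and 7.18, 7.13 and 6.92 in control, a fall of 0.98 on the log2 scale (SE 0.11, limma adjusted p = 0.000893). X71602 was represented by a pair of probes. The first had 6.87, 7.03 and 6.67 with aluminium and 7.55, 7.43 and 6.97 in control, groups that overlapped at control replicate 3, with an adjusted p of 0.0924. The second had 6.11, 6.34 and 6.28 with aluminium and 7.23, 7.16 and 6.77 in control, a fall of 0.81 with an adjusted p of 0.00702. With the replicate block both were called lower (adjusted p = 0.0137 and 0.00772).

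Agreement between probes of 1 record gave a check on single probes. Of 74 records with 2 to 4 tested probes, 70 had all probes on the same side of 0. All probes were called lower in 21 records and higher in 7, none was called in 32, and some but not all in the rest. The range of the differences within a record had a median of 0.11 and was under 0.5 in 68 records. Among 2239 other identifiers of the array with several tested probes the median range was 0.092. The differences of the 2 brightest probes correlated across the 74 records with Pearson's r of 0.967, a description over records whose probes share the same arrays. D26509 shows this at 4 probes, which fell by 1.38, 1.66, 1.67 and 1.76 on the log2 scale, and L29271 at 3 probes, which rose by 0.72, 0.74 and 0.76.

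**Figure D4:**
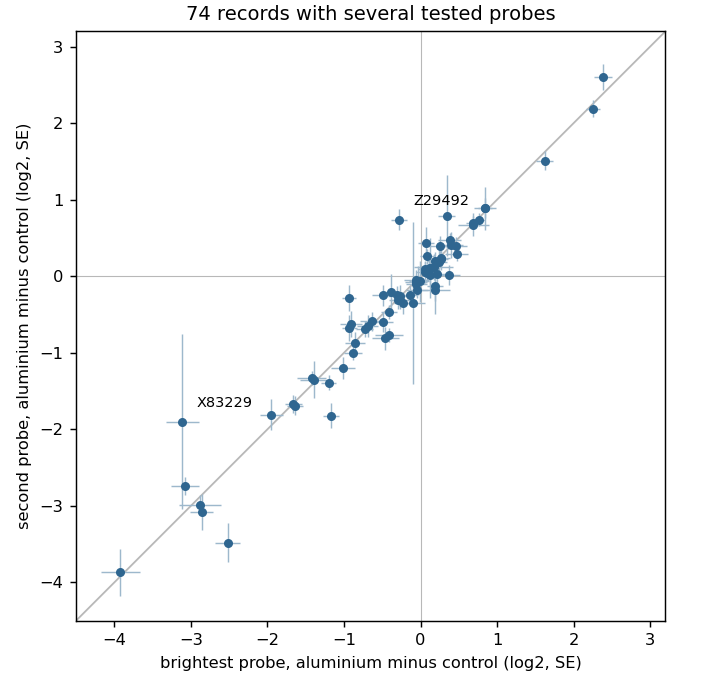
Aluminium minus control difference (log2, with SE) at the brightest and the second brightest tested probe of 74 early records; the grey diagonal marks equal values. Most records lie on the diagonal, and X83229 and Z29492 lie off it by more than 1 log2 unit.

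In 1 record, Z29492, probes were called in opposite directions. One probe had 0.97, 0.70 and 0.73 with aluminium and 0.28, -0.12 and 0.03 in control, a rise of 0.74 ± 0.14 (SE, limma adjusted p = 0.00799). Another had 0.02, 0.23 and -0.08 with aluminium and 0.49, 0.56 and 0.47 in control, a fall of 0.45 (SE 0.11, adjusted p = 0.021). The third, the brightest, had 1.24, 1.29 and 1.05 with aluminium and 1.48, 1.47 and 1.47 in control and was not called (adjusted p = 0.0685). The groups did not overlap at any of the 3 probes, and the rise at the first was seen on every slide, by 0.70, 0.82 and 0.70.

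The counts are given by letter as a description, beside 20.2% lower and 22.4% higher over all tested probes, and differences between letters were not tested. Of 20 tested M probes, from 13 records, 12 were lower and 1 higher, and of 32 Z probes, from 18 records, 13 were lower and 1 higher. D probes had 19 lower and 12 higher of 42, and X probes 36 lower and 20 higher of 117. U probes had 14 lower and 9 higher of 57, and Y probes 7 each way of 35. Of 17 L probes 1 was lower and 4 higher, of 7 S probes 4 were lower and 1 higher, and of 2 A probes 1 was higher. None of the 6 T probes was called. Probes of the same record are counted together here, so 1 record with several probes weighs more than once.

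Records with consecutive numbers, which were often submitted together, did not always move together. There were 41 such pairs among the tested records. Both were lower in 7 pairs and both higher in 1, while in 4 pairs they were called in opposite directions. In 17 pairs 1 record was called and in 12 neither. Most of the lower pairs came from the 3 runs named below, whose middle records count in 2 pairs each. A record could count as called with some probes uncalled, as Z93770 did. The shares among other pairs of records are not given here. The median gap between the mean differences of a pair was 0.41, which lies between the 0.11 within a record and the 0.83 over all pairs of tested records. X83729, X83730 and X83731 were lower by 0.40, 0.63 and 0.36, and D50736, D50737 and D50738 by 1.37, 0.90 and 0.78. In the run from Z93768 to Z93771 the mean differences were 0.057, -0.61, -0.54 and -0.87, so the first stood apart from the other 3.

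The opposite pairs included large changes. X64398 had 5.58, 5.30 and 5.69 with aluminium and 3.79, 3.86 and 4.16 in control, a 3-fold rise. Its neighbour X64399 fell at both of its probes, by 1.69 and 1.64, with -4.28, -4.41 and -4.27 with aluminium and -2.46, -2.60 and -2.82 in control at the first. X81854 fell by 1.3, with -2.16, -2.23 and -2.29 with aluminium and -0.92, -0.95 and -0.91 in control. Its neighbour X81855 had -4.97, -4.52 and -5.03 with aluminium and -6.42, -6.20 and -7.23 in control, where 1 array was not well above background, so it was tested through the aluminium group alone. D89635 fell by 1.0, while both probes of D89636 rose, by 0.89 and 0.84.

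Some early-record probes differed widely between replicate numbers in both groups. At 10 tested probes of 10 records both arrays of replicate 2 stood high. They lay at least 1 log2 unit above the mean of the other 2 arrays of their group, by 1.21 to 2.70 on average. Untested probes, some of which met this too, were not counted. This criterion was chosen after the values were seen. Over the array 1052 tested probes (3.65%) met it, a share close to the 2.99% of early records. The criterion was met upwards by 0 tested early-record probes for replicates 1 and 3. Downwards it was met by 9 for replicate 3, whose arrays were dimmer, by 1 for replicate 1 and by 0 for replicate 2. As each replicate number was 1 slide, sample and slide cannot be told apart here.

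Z16404 is the clearest of the 10. It had -2.95, -1.0 and -2.90 with aluminium and -1.05, 1.09 and -1.04 in control, so the groups overlapped, and without a block it was not called (-1.95 ± 0.78, SE; limma adjusted p = 0.0914). Its differences within the replicate pairs were -1.91, -2.09 and -1.86, and with the replicate block the adjusted p was 0.000247. X62426 had -5.84, -4.88 and -7.17 with aluminium and -3.80, -2.31 and -5.15 in control, with pair differences of -2.05, -2.57 and -2.02 (adjusted p = 0.0833 without and 0.00053 with the block). A second probe of X62426 was not well above background on any array. X70651 had -2.71, -0.31 and -3.36 with aluminium and -2.25, -0.01 and -3.09 in control, so replicate 2 was more than 4-fold higher in both groups while the pairs differed by at most 0.46. Without a block 0 of the 10 were called, and with it 8 were, 6 lower and 2 higher. The 10 were chosen for a difference between replicate numbers, which widens the spread without a block and is removed by it. This gain thus largely follows from the choice, and the block called 65% of all tested probes.

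Of these 10 records 3 had another tested probe, and there replicate 2 was not higher by 1 log2 unit. At the second tested probe of S44869, X70651 and X83229, replicate 2 stood -0.35 to 0.38 from the mean of the other arrays of its group. At that of X83229 it was higher in both groups, by 0.38 with aluminium and 0.32 in control. X83229 had -6.09, -4.77 and -7.63 with aluminium and -4.47, -2.19 and -6.13 in control at the probe high in replicate 2, which was not called without a block (adjusted p = 0.233) and was with it (0.0035). Its other probe had -3.74, -3.47 and -3.96 with aluminium and -0.42, -0.40 and -1.02 in control and fell 8.62-fold. The fall was thus 1.90 at one probe and 3.11 at the other on the log2 scale.

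**Figure D5:**
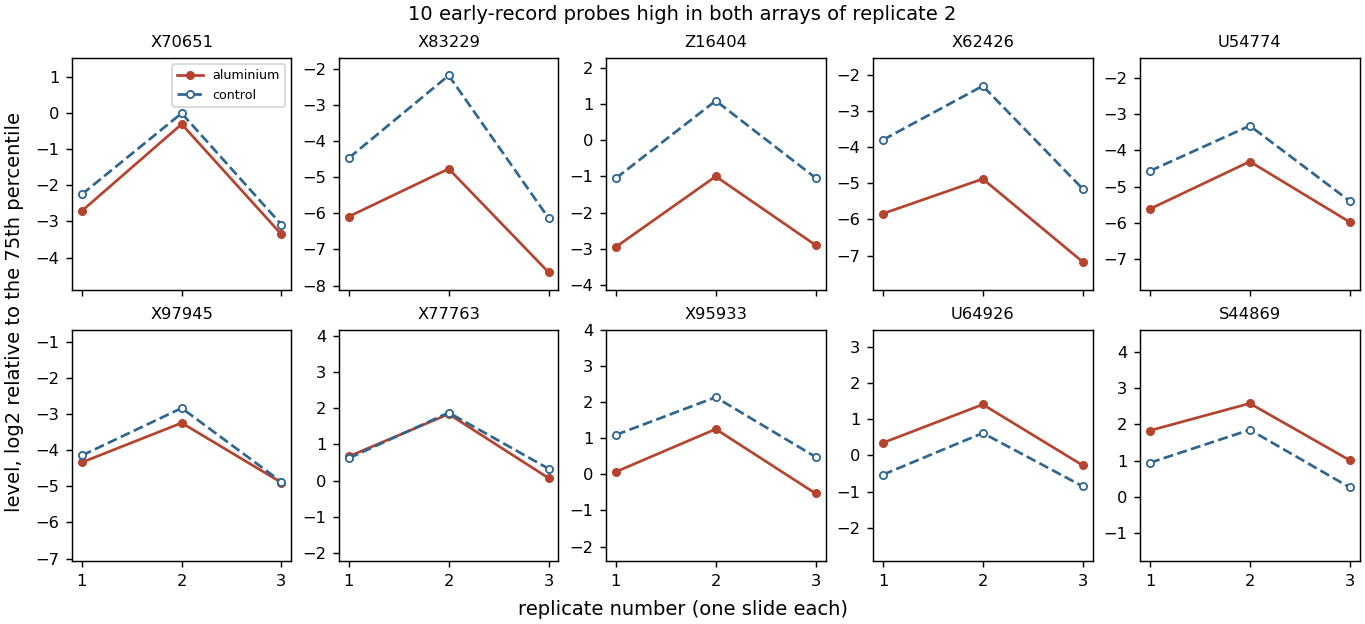
Levels (log2 relative to the array's 75th percentile) by replicate number for 10 early-record probes. They are the tested ones at least 1 log2 unit higher in both arrays of replicate 2, every panel spanning the same range of 6.4 units. Both groups are higher in replicate 2, which is how these probes were chosen, and the pair differences of X83229 (-1.62, -2.58 and -1.49) vary most.

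Pairing by replicate number raised the number of calls without turning any. All 162 early-record probes called without a block were also called with it, in the same direction. The block added 74, of which 38 were lower and 36 higher, with a median size of 0.37 on the log2 scale. With it the share called rose from 48.4% to 70.4% of tested early-record probes. Over all tested probes it rose from 42.5% to 65%, so the gain was not particular to the early records. Besides Z16404, X62426 and X83229, the uncalled probes of at least 2-fold in size without the block were D50034 and X59838. Each of them had 1 control array well above background and was not called with the block either (adjusted p = 0.155 and 0.0799).

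The 49 early-record probes that were not tested were not well above background on every array of either group. Not all were dim on each array, as Y08154 read -3.62 with aluminium and -3.28 in control in replicate 2. Of these, 20 were well above background on no array, 9 on 1, 6 on 2, 9 on 3 and 5 on 4. Of the early-record probes 87.2% were tested, against 66% of all probes on the array.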

How the data were processed

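Total RNA (200 ng per sample) was made into Cy3-labelled cRNA and hybridised to 6 single-colour arrays, per the labels' protocols. The intensity deposited for each spot is the processed signal of Agilent Feature Extraction 11.5.1.1, per the file headers, after background subtraction and detrending within the array. The authors' series table was deposited as log2 values with scale, centring and direction not stated. Its columns equalled the levels below, centred on each probe's median, with a median difference of at most 0.00122, and its column medians were -0.016, 0.0042 and -0.012 for control and 0.054, -0.026 and 0.00072 for aluminium.

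Of 45220 spots, 1417 control spots and outlier spots (at most 16 per array) were left out. Log2 processed signals were averaged per probe and each array's 75th percentile was subtracted. Differences, aluminium minus control, were fitted by limma (version 3.58.1, with lmFit and eBayes; R 4.3.3), two-sided, and called at a Benjamini-Hochberg adjusted p under 0.05. Arrays limit precision by their number, 3 per group.

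Same-numbered arrays deviated together from their group means (correlations of 0.615, 0.798 and 0.711 over all tested probes, 0.54, 0.817 and 0.738 over early records), and they share a slide, so the arrays were treated as paired by number in the block alternative.

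Records given by identifier were the 12 highest and 12 lowest called ones, well above background on all 6 arrays and of one direction in every pair, those detected in 1 group only, the 3 probes with the highest signal and records with opposite calls. The planned lists of genes by description were not used, as no descriptions exist. The members, rules and lists were chosen with earlier results of these data known. Alternatives were normexp correction (offset 50, on spot medians, as means are not in the files), other scalings, filters, variance and replicate settings. Leaving out replicate 2, spike-in scaling without replicate 3 and quantile scaling with the block were added after seeing the data.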

Additional observations from a re-analysis of the deposited data

How the results depend on the processing

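The 162 called early-record probes, of which 106 were lower and 56 higher, and the 74 of at least 2-fold, 51 lower and 23 higher, stayed within 1.5 times of these counts in most alternatives. The exceptions were as follows. Spike-in scaling without a block left 46, all of at least 2-fold, 32 lower and 14 higher. With the replicate block 92 were higher, and with spike-in scaling and the block 36 were higher. With 1 probe per identifier, which tests 237 probes, 31 fell at least 2-fold. The cause of the loss under spike-in scaling was not tested. That scaling moved the median difference of all tested probes from 0.069 to -0.081 and that of the early records from -0.081 to -0.23. Without each array in turn there were 140 to 149 calls, 91 to 97 lower and 46 to 54 higher, and 70 to 78 of at least 2-fold, 47 to 53 lower and 22 to 27 higher. Leaving out both arrays of replicate 3 gave 128, and of replicate 2 gave 136. More early-record calls were lower than higher in every alternative run. Higher calls made 25.5 to 39.3% of them, and 41 to 61% of the calls over the array, which also had more lower than higher calls under quantile normalization without a block and under spike-in scaling with all 6 arrays. No called early-record probe was called in the opposite direction in any of these alternatives. The 25 records given by rank or by detection in 1 group kept their call in 543 of 545 alternative values, all with the sign kept; the exceptions were X51426 and D10524 under spike-in scaling. These records were picked by size from these 6 arrays, so this says little about the others. The replicate block ended no call. Probes near background are limited most: with normexp correction the difference of D38126 was -1.25 in place of -3.96.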
